A study of Mus musculus with 72 samples.

Results

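Clones D5 and G6, a pair of SmcHD1 knockout (KO) clones, were profiled before Xist was switched on and again on days 2 and 3 of Xist induction and neural differentiation. They were chosen by their labels: 13 of the 72 libraries of the series, which made 11 replicates once the R1 and R2 libraries of the same replicate were summed. Uninduced embryonic stem (ES) cells gave 3 replicates, 2 of D5 and 1 of G6. Each clone gave 2 replicates at day 2 and 2 at day 3. The day 2 and day 3 samples are called neural precursor cells (NPCs) in the labels, and that name is kept here for the samples only.

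Both clones derive from iXist-ChrX-Cast, a female mouse ES cell line with a 129 (Dom) and a Mus musculus castaneus (Cast) X chromosome. In it a doxycycline-inducible promoter replaces the endogenous Xist promoter on the Cast X, so that this X becomes the inactive X (Xi) while the Dom X stays active (Xa). The KO is thus represented by single CRISPR-Cas9 clones, and every sample compared here lacks SmcHD1. ES samples were grown in serum and LIF on fibroblast feeders, which were removed by pre-plating. NPC samples were grown without serum and LIF in N2B27 medium with doxycycline at 1 µg/mL. The change of medium, differentiation and Xist induction came together and cannot be told apart, and with no uninduced cells of intact SmcHD1 among the samples the comparison says nothing of what SmcHD1 does.

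As background, Xist is a long noncoding RNA that coats the chromosome it is made from and recruits factors that silence its genes. SmcHD1 is a chromatin protein that joins the Xi late and keeps many of its genes silent. Mouse ES cells in serum and LIF hold a naive pluripotent state carried by transcription factors such as Nanog, Klf4 and Esrrb. On leaving LIF they pass through a formative state marked by Otx2, Fgf5 and the de novo DNA methyltransferases before lineage genes come on.

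Chromatin-associated RNA sequencing (ChrRNA-seq) measures the RNA held on chromatin, which is rich in nascent transcripts. The 13 libraries held 13211298 to 29419489 fragments in genes (D5 ES replicate 2 had the fewest), and 45.5 to 49.1% of fragments could be assigned to an allele. The median Cast share of autosomal genes, Cast/(Cast + Dom) fragments, was 0.484 to 0.493 in each library. Levels are given as RPM, the fragments of a gene scaled to the same total of fragments in genes (reads per 1000000). They are not divided by gene length, so they are compared between samples and not between genes. The RNA of Smchd1 itself stood at 358 to 402 RPM in ES and higher, at 416 to 616 RPM, in NPC samples. Total gene counts do not check the mutation. The labels do not say whether replicates came from separate cultures, whereas figure legends of the study describe the replicates of days 2 and 3 as repeated time courses. Where replicates shared a culture, p-values measure only the spread between these samples.

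The R1 and R2 libraries of day 3 replicate 1 differed, and the labels do not say whether R2 repeats R1 or comes from a further time course. Figure legends of the study give day 3 as the mean of 3 time courses and day 2 as that of duplicates. The day 3 libraries of each clone (R1, R2 and replicate 2) match that number, which would make R2 a further time course. R1 and R2 carry the same replicate number and were summed, so that each day 3 replicate 1 value is the sum of 2 unlike libraries. In D5 the median Cast share of X-linked genes was 0.0607 in R1 and 0.127 in R2, and in G6 it was 0.0484 in R1 and 0.120 in R2. Both R2 values lay within the range of the 4 day 2 replicates, 0.106 to 0.159. Pcdh7, a protocadherin gene, stood at 133 RPM in R1 and 17.2 RPM in R2 of D5, and at 230.3 RPM in R1 and 44.4 RPM in R2 of G6, with day 2 replicates at 10.8 to 19.5 RPM. For day 3 against day 2, the counts of genes, the median share and the calls of the named genes are therefore also given with either library alone, whereas other day 3 values rest on the sum.

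The first comparison asked which genes differed between days 2 and 3 and uninduced ES cells. By edgeR's quasi-likelihood test with stage and clone as terms, at a Benjamini-Hochberg adjusted p below 0.05, 3170 of 15312 genes tested were higher in NPC samples (20.7%) and 3316 were lower (21.7%). The RPM ranges of the 3 ES and the 8 NPC replicates did not overlap in 4240 genes (27.7%). With library totals in place of TMM scaling the split was 4019 higher and 2544 lower, and the median log2 change of all genes moved from 0.02 to 0.18. Without G6 ES replicate 1, the only ES sample of that clone, 4306 genes were called in all. Against ES alone, 5854 genes differed at day 2 (38.2%) and 5432 at day 3 (35.5%).

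Naive pluripotency factors fell together. Of 18 listed genes tested, 16 were lower and none was higher, with a median log2 change of -2.37 against 0.02 over all genes. Over all genes 20.7% were higher and 21.7% lower. In each clone fitted alone 16 were again lower. Tfcp2l1, a transcription factor of the naive network, stood at 524 and 617 RPM in D5 ES and 407 RPM in G6 ES. It lay at 43.6 and 48.0 RPM in D5 and 18.9 and 28.5 RPM in G6 at day 2, and at 63.0 and 30.4 RPM in D5 and 43.2 and 22.9 RPM in G6 at day 3. Every NPC replicate was below every ES replicate, a log2 change of -3.86 ± 0.22 (SE; edgeR adjusted p = 5.23e-07).

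Klf4, a reprogramming factor and target of LIF signalling, stood at 80.3 and 132 RPM in D5 ES and 37.4 RPM in G6 ES, and between 2.33 and 14.2 RPM in the 8 NPC replicates (median 8.45). Its log2 change was -3.25 ± 0.30 (edgeR adjusted p = 1.23e-05), and the groups were far apart in both clones. Nanog, the homeodomain factor of the naive state, stood at 47.4 and 88.2 RPM in D5 ES and 30.6 RPM in G6 ES, against 5.06 to 23.2 RPM in NPC samples (median 12.3), which did not overlap. Prdm14, a repressor of FGF signalling and of DNA methylation, fell by 3.10 on the log2 scale and Tbx3, a T-box factor, fell by 3.68.

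The pair of listed naive genes that did not pass the test were Fgf4 and Dppa3. Fgf4, the growth factor that ES cells make for themselves, ranged from 34.5 to 52.0 RPM in ES and from 16.4 to 99.9 RPM in NPC samples, so the groups overlapped (log2 change -0.22, edgeR adjusted p = 0.544). Core pluripotency genes did not move as the naive ones did. Of 11 tested, 3 rose, 4 fell and 4 did not pass, with a median log2 change of 0.11. Over all genes 20.7% rose and 21.7% fell. Pou5f1, which encodes Oct4, stood at 44.7 to 62.2 RPM in ES and 44.1 to 118 RPM in NPC samples, with overlapping groups (log2 change 0.37, edgeR adjusted p = 0.191). Lin28a, an RNA-binding protein that blocks let-7 maturation, rose by 0.92 and Cdh1, the E-cadherin gene, rose by 0.95 on the log2 scale. Tdgf1, a Nodal co-receptor, fell by 1.71 and Dppa2 fell by 1.21.

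**Figure D1:**
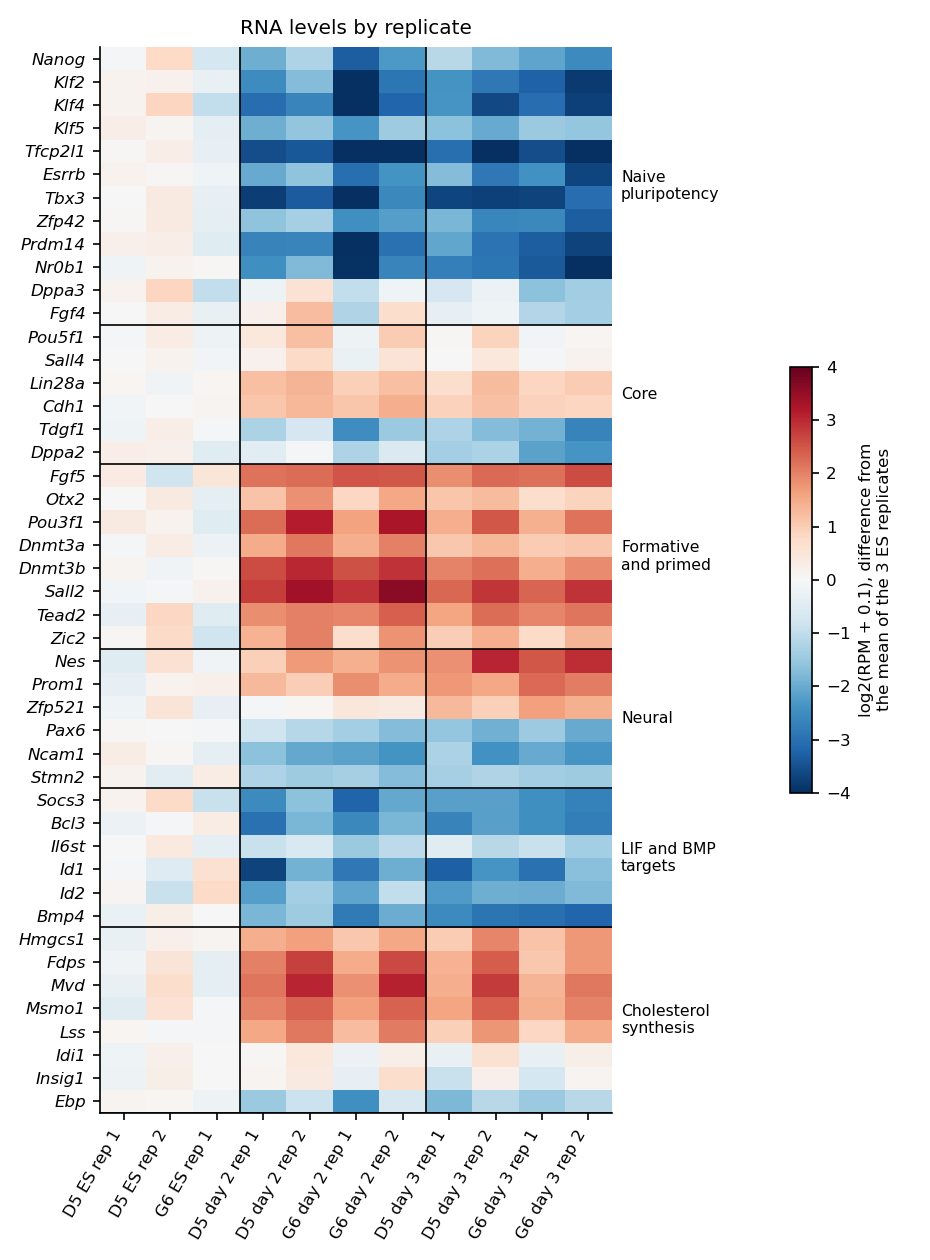
Level of 46 list genes (rows) in the 11 replicates (columns), as log2(RPM + 0.1) minus the mean of the 3 ES replicates of the same gene; red is above and blue below, and the scale ends at 4 in both directions. Naive genes such as Tfcp2l1 and Klf4 are blue in all 8 NPC replicates, whereas formative genes such as Dnmt3b and Sall2 and most cholesterol synthesis genes are red.

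Formative and primed genes rose. Of 18 listed and tested, 10 were higher, 3 were lower and 5 did not pass, with a median log2 change of 1.07. Over all genes 20.7% were higher and 21.7% lower. Dnmt3b, a de novo DNA methyltransferase, stood at 167 and 142 RPM in D5 ES and 160.0 RPM in G6 ES. At day 2 it reached 958 and 1254 RPM in D5 and 908 and 1164 RPM in G6, and at day 3 621 and 715 RPM in D5 and 429 and 579 RPM in G6. All 8 NPC replicates lay above the ES replicates (log2 change 2.19 ± 0.18, edgeR adjusted p = 6.67e-06), and all 4 day 3 replicates lay below the 4 of day 2 (log2 change -0.77, edgeR adjusted p = 0.0339, and -0.80 with R2 alone, adjusted p = 0.0678). Fgf5, the growth factor that marks epiblast-like cells, rose from 8.78 to 21.3 RPM in ES to 56.2 to 94.1 RPM (log2 change 1.97). Sall2, a zinc-finger factor, stood at 3.23 to 3.93 RPM in ES and 17.6 to 43.5 RPM in NPC samples (log2 change 2.74 ± 0.21), and was second only to Xist among the genes that the naming rule selected as higher. Otx2 rose by 1.09 and Pou3f1 by 2.23. Among the 3 that fell were Cdh2, the N-cadherin gene, and Etv1, an ETS factor, which fell by 0.83 and 0.68 on the log2 scale.

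The DNA methylation machinery, a list that shares 2 genes with the formative and 1 with the naive list, changed in both directions: 3 of 10 rose and 4 fell, where 20.7% of all genes rose and 21.7% fell. Tet2, a dioxygenase that oxidises 5-methylcytosine, stood at 341 and 381 RPM in D5 ES and 268 RPM in G6 ES and at 26.8 to 50.6 RPM in NPC samples, which did not overlap (log2 change -3.24 ± 0.13, edgeR adjusted p = 6.74e-08). Tet1 fell by 1.26, whereas Tet3 rose by 0.74 and Dnmt3a by 1.33. Dnmt3l, the catalytically inactive partner of the de novo enzymes, stood at 49.1 to 73.9 RPM in ES, 32.1 to 78.8 RPM at day 2 and 14.5 to 26.2 RPM at day 3, so that its levels at day 3 alone were clear of the ES range.

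Neural genes gave a mixed picture at these days. Of 22 neural precursor genes listed, 10 stayed under 1 RPM in every replicate and 13 passed the filter on low counts. Of these 13, 3 rose and 6 fell (median log2 change -0.87), beside 20.7% and 21.7% of all genes. Nes, the nestin gene, stood at 6.29 and 13.4 RPM in D5 ES and 7.97 RPM in G6 ES, at 17.2 to 30.5 RPM at day 2 and at 31.5 to 73.0 RPM at day 3 (log2 change 1.87 ± 0.28, edgeR adjusted p = 0.000293). Its groups followed one another without overlap. Prom1, a membrane protein of neural progenitors, rose by 1.44 and Zfp521, a neural fate factor, by 0.56. Pax6, a defining factor of neural progenitors, was at 4.28 to 4.74 RPM in ES and at 1.04 to 2.59 RPM in NPC samples (log2 change -1.63), and Ncam1, a neural adhesion molecule, fell by 2.09. Sox1 and Sox2 were listed at 0 in all libraries, and both lie inside a longer transcript on the same strand (Gm5607 and Sox2ot), where fragments cannot be credited to 1 gene, so neither was read as absent. Summed over the 4 formative or primed markers, levels were 192 to 219 RPM in ES and 553 to 1450 RPM in NPC samples. Dnmt3b made up most of that sum in every replicate. Summed over the 5 neural precursor markers, levels were 11.2 to 18.1 RPM in ES and 20.1 to 74.6 RPM in NPC samples. Only 1 of the 5, Nes, was over 5 RPM in any replicate, so this sum is mostly Nes. With Nes up and Pax6 down, these markers do not settle the label NPC. Of 10 neuronal genes tested, 1 rose (Hes6) and 2 fell (Stmn2 and Elavl4), where 20.7% of all genes rose and 21.7% fell.

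Genes downstream of LIF and BMP fell as well. Of 14 LIF-STAT3 targets tested, 11 were lower and none higher (median log2 change -1.16). This list shares Klf4 and Tfcp2l1 with the naive list. Socs3, the feedback inhibitor of LIF signalling, stood at 17.2 and 26.5 RPM in D5 ES and 8.41 RPM in G6 ES and at 1.63 to 4.98 RPM in NPC samples, below all ES values (log2 change -2.44 ± 0.23, edgeR adjusted p = 1.44e-05). Stat3 fell by 1.14 and Il6st, which encodes the gp130 receptor chain, by 1.05. Of 11 BMP-SMAD targets tested, 8 were lower (median log2 change -1.29). Library totals without TMM scaling left 5 of these calls (Id1, Id2, Id4, Smad7 and Bmp4), and the fits of D5 alone and of G6 alone left the same 5. Id1, an inhibitor of differentiation factors that BMP in serum induces, fell from 1.97 to 4.43 RPM to 0.127 to 0.833 RPM (log2 change -3.04), and the ligand gene Bmp4 fell by 2.59. Among 16 FGF-ERK targets 6 fell, with Fos, an immediate early gene, at -3.55. Of 9 WNT targets tested 4 rose and Notum, which encodes a secreted WNT inhibitor, fell by 3.31. Of 7 retinoic acid targets 3 rose and 2 fell, of 14 p53 targets 2 rose and 5 fell, and of 14 germline genes 1 rose and 6 fell. Against the 20.7% and 21.7% of all genes that rose and fell, these small counts are given as a description only.

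**Figure D2:**
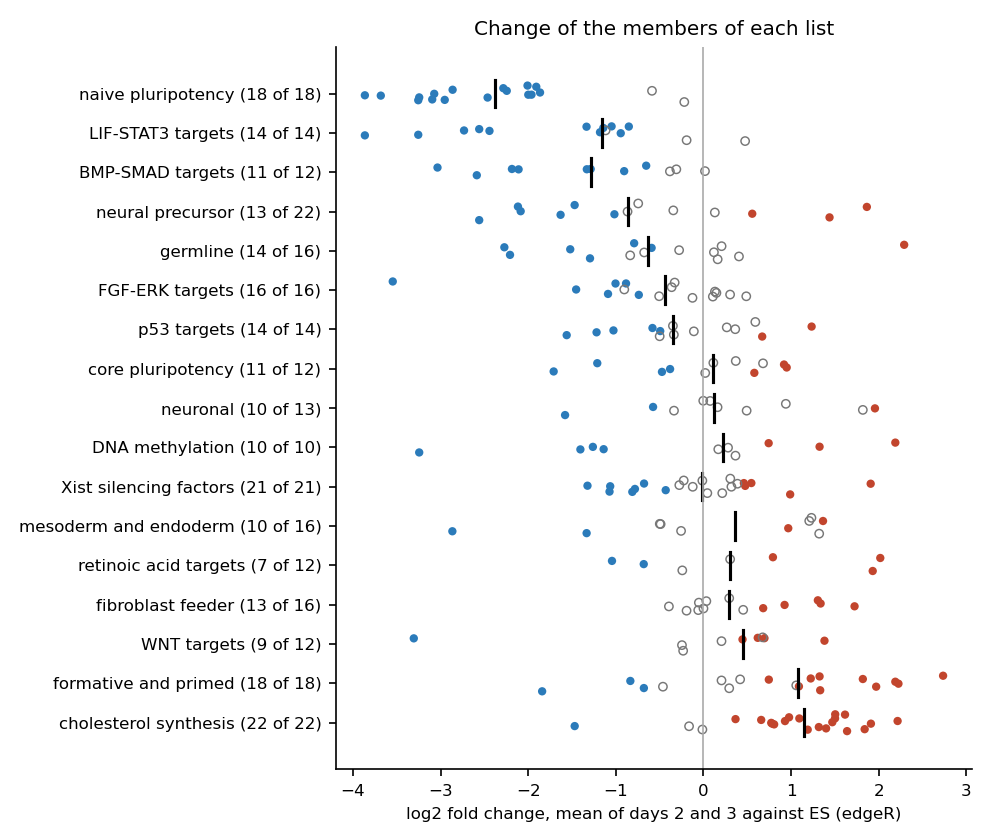
Log2 fold change of days 2 and 3 against ES for the tested members of 17 gene lists, with the number tested of the number listed in brackets; filled red and blue points passed edgeR's test as higher and lower, open points did not, and the black bar is the median of the list. The naive list lies at a median of -2.37 and the cholesterol synthesis list at 1.14.

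Cholesterol synthesis was the list with the most genes that rose. Of 22 members, all tested, 19 were higher and 1 was lower, with a median log2 change of 1.14. Over all genes 20.7% were higher and 21.7% lower. With D5 alone 17 were higher and with G6 alone 9. Hmgcs1, which makes HMG-CoA for the mevalonate pathway, stood at 65.0 and 91.4 RPM in D5 ES and 85.6 RPM in G6 ES. At day 2 it stood at 217 and 247 RPM in D5 and 167 and 232 RPM in G6, and at day 3 at 161 and 312 RPM in D5 and 175 and 264 RPM in G6. The NPC replicates were all above the ES replicates (log2 change 1.32 ± 0.20, edgeR adjusted p = 0.000346).

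Mvd, the mevalonate decarboxylase gene, changed most within the list, from 2.84 to 6.21 RPM in ES to 9.91 to 32.8 RPM in NPC samples (log2 change 2.22 ± 0.37). Fdps, which makes farnesyl diphosphate, rose by 1.91, and Msmo1, a sterol demethylase, by 1.84. Idi1 and Insig1 did not pass. Insig1, which holds the SREBP precursor in the endoplasmic reticulum, ranged from 116 to 156 RPM in ES and from 72.5 to 218 RPM in NPC samples, and the groups overlapped. The member that fell was Ebp, a sterol isomerase gene on the X, at 9.71 to 12.0 RPM in ES and 1.93 to 7.03 RPM in NPC samples (log2 change -1.47). Nsdhl, the other X-linked member, rose by 0.37. Both changes are of total counts, which add the 2 alleles. Scaled to the autosomal fragments of the same allele, the Dom copy of Ebp changed by -0.26 and its Cast copy by -2.60. The Dom copy of Nsdhl changed by 1.26 and its Cast copy by -0.73 on the log2 scale.

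The stretches upstream of Hmgcs1 and Msmo1 are shown because these list members rose together and both hold the letters TCACNCCA, a form of the sterol regulatory element, along with ATTGG, the NF-Y box. The sequences are those of RefSeq (GRCm38.p6), the 250 bases before the transcript start, 5′ to 3′ on the gene's strand, at chr13:119690101-119690350 (+) for Hmgcs1 and chr8:64733579-64733828 (-) for Msmo1. Capitals mark TCACNCCA or ATTGG on either strand.
Hmgcs1: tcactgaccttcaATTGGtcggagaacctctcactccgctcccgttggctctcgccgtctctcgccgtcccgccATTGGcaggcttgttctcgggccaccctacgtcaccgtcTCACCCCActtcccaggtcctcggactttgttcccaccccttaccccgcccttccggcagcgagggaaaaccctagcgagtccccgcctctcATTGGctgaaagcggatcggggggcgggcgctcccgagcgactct
Msmo1: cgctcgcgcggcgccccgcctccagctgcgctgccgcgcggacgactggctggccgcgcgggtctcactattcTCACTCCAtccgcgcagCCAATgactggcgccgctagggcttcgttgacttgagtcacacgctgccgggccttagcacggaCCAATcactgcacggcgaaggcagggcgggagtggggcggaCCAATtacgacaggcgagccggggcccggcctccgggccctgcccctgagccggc
TCACNCCA begins 137 bases before the start of Hmgcs1 and 177 bases before that of Msmo1, and each stretch holds 3 ATTGG boxes. Of the 22 list members, 15 matched a promoter in the RefSeq table (250 bases before to 50 after the start). TCACNCCA, searched on both strands (TGGNGTGA on the other), was found in 3 of the 15 genes (Hmgcs1, Msmo1 and Srebf2), against 4.97% of all 27025 genes in the table. ATTGG, looked for in the same way and so also as CCAAT, was found in all 15, against 41.1% of all genes. The 15 include Ebp, which fell in total counts, and Idi1 and Insig1, which did not pass. ATTGG thus did not set apart the members that rose. The motifs were picked after the changes were seen, and letters in a promoter are a description, not a bound site.

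Outside the lists, the naming rule took the genes with the largest changes among those at 20 RPM or more whose groups did not overlap. Those that rose included Enpp2, which makes lysophosphatidic acid (17.1 to 30.2 RPM in ES, 138 to 233 RPM in NPC samples, log2 change 2.68), Ror1, a WNT5A receptor (87.2 to 109 RPM against 419 to 1231 RPM, log2 change 2.62), and Igdcc4 (log2 change 2.63). Dbn1, which encodes the actin-binding protein drebrin, rose by 2.54, Crmp1, a collapsin response mediator, by 2.42, and Shc4, an adaptor protein, by 2.46. Far2, Vrtn and Mapk4 rose by 2.51, 2.51 and 2.49. Those that fell included Mras, a RAS family GTPase (36.3 to 49.3 RPM in ES and 1.77 to 4.58 RPM in NPC samples, log2 change -4.08 ± 0.20), and Alk, a receptor tyrosine kinase (155 to 291 RPM and 10.7 to 28.4 RPM, log2 change -3.63). Jam2, a junctional adhesion molecule, fell by 3.34, and Lgals3, a galectin, fell by 3.51. Tmem132d and Serpinb6c fell by 3.62 and 3.13. In all of these the 8 NPC replicates lay on the same side of the 3 ES replicates, as the rule required.

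Gata4, Gata6 and Pdgfra, which are active in endoderm, stood higher in each G6 NPC replicate than in any D5 NPC replicate. Of 10 mesoderm and endoderm genes tested 2 rose and 2 fell, which is about the share over all genes (20.7% and 21.7%). Gata4 stood at 3.56 and 4.62 RPM in D5 ES and 11.1 RPM in G6 ES, at 4.03 to 14.1 RPM in D5 NPC samples and at 39.7 to 80.6 RPM in G6 NPC samples. Gata6 and Pdgfra had the same order, with G6 NPC samples at 27.8 to 73.7 RPM and 25.5 to 92.9 RPM and D5 NPC samples at 3.18 to 14.1 RPM and 4.87 to 25.2 RPM. The summed 7 markers, Gata4 and Gata6 among them, were at 12.2 to 26.9 RPM in ES, 11.02 to 39.7 RPM in D5 and 71.5 to 167 RPM in G6 NPC samples. Only 2 or 3 of the 7 were over 5 RPM in each G6 NPC replicate, so the sum rests largely on Gata4 and Gata6. The difference between clones passed edgeR's test for none of Gata4, Gata6 and Pdgfra. What part any endoderm-like cells had in other results was not tested. In bulk samples more cells of a type and more RNA per cell cannot be told apart. Of 13 fibroblast feeder genes tested 5 rose, Pdgfra among them, where 20.7% of all genes rose. The 8 defining feeder markers together gave 5.91 to 17.7 RPM in ES and 9.72 to 21.4 RPM in NPC samples.

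No gene's change differed between the clones by edgeR's interaction test (0 of 15312, 0%), whereas 654 had an unadjusted p under 0.05 and DESeq2 called 20. The smallest adjusted p belonged to Limch1 and Bmp6 (0.364 for both), followed by Nrg2, Kit and Greb1l (0.727). Bmp6, a BMP ligand, stood at 45.8 and 49.4 RPM in D5 ES and at 20.1 to 25.3 RPM in D5 NPC samples, but at 29.0 RPM in G6 ES and at 48.5 to 73.6 RPM in G6 NPC samples. Its direction thus differed between the clones, with the G6 side resting on a single ES replicate.

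Day 3 differed from day 2 in fewer genes. Summing R1 and R2, 232 genes were higher (1.52%) and 155 lower (1.01%) at day 3. With R1 alone 790 genes were called in all and with R2 alone 60. With the replicate number as a block, 1216 genes were called. The count was 616 without D5 ES replicate 2, 210 without D5 day 2 replicate 1, 90 without D5 day 2 replicate 2, 185 without D5 day 3 replicate 1, 203 without D5 day 3 replicate 2, 152 without G6 day 2 replicate 2, 86 without G6 day 3 replicate 1 and 89 without G6 day 3 replicate 2. It was therefore not a stable number. Pcdh7 stood at 10.8 and 11.4 RPM in D5 and 19.5 and 14.8 RPM in G6 at day 2, and at 78.2 and 88.2 RPM in D5 and 136 and 128 RPM in G6 at day 3 (log2 change 3.01 ± 0.32, edgeR adjusted p = 0.0020). The day 2 replicates lay within the range that Pcdh7 had in ES or just above it. Pcdh11x, an X-linked protocadherin, went from 2.46 to 6.51 RPM to 29.9 to 41.8 RPM (log2 change 2.96), and Zeb2, a SMAD-interacting repressor needed for neural differentiation, from 17.1 to 44.7 RPM to 49.2 to 164 RPM (log2 change 1.86). Thbs1, a matrix protein, rose by 2.08 and Ppp4r4, a phosphatase regulator, by 1.99. The largest falls were in Dnmt3l (log2 change -1.37), the piRNA factor Tdrd12 (-1.29), the inositol phosphatase Inpp5d (-1.28), Slc5a11 (-1.19) and Myrf (-1.12). With R1 alone all 10 of these genes passed. With R2 alone Thbs1, Tdrd12, Inpp5d and Myrf passed, while the log2 change of Pcdh7 was 2.37 (edgeR adjusted p = 0.0643), that of Pcdh11x 2.18 (0.0718), that of Zeb2 1.44 (0.217), that of Ppp4r4 1.60 (0.0616), that of Dnmt3l -1.23 (0.0531) and that of Slc5a11 -1.15 (0.0597). Zeb2 also did not pass with R1 and R2 as separate replicates (log2 change 1.70, edgeR adjusted p = 0.0814).

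The X chromosome moved differently from the autosomes in total counts. Of 567 X-linked genes tested 336 were lower (59.3%) and 21 higher (3.70%), with a median log2 change of -0.71, against 2980 of 14743 autosomal genes lower (20.2%) and a median of 0.04. Xist (X:103460372-103483233, minus strand, mm10) stood at 322 and 154 RPM in D5 ES and 1009 RPM in G6 ES. It reached 6464 and 3902 RPM in D5 and 9414 and 7323 RPM in G6 at day 2, and 8904 and 8576 RPM in D5 and 11683 and 19798 RPM in G6 at day 3. All NPC replicates were above all ES replicates, and the mean log2 difference within clones was 4.19 (exact two-sided permutation within clone, p = 0.0133, the smallest that 75 arrangements allow; 0.020 after adjustment over 6 such tests). Xist was not at 0 in uninduced cells, where its Cast share was 0.829, 0.743 and 0.901.

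The loss of X-linked RNA was on the Cast side. X-linked genes without Xist made up 3.97% ± 0.412 (SD, n = 3) of Cast-assigned fragments in ES and 0.871% ± 0.210 (SD, n = 8) in NPC samples (exact permutation p = 0.0133, adjusted 0.020). Of Dom-assigned fragments they made up 4.98% ± 0.225 and 4.81% ± 0.326, which overlapped (exact permutation p = 0.6). Of all fragments they made up 6.12% ± 0.364 and 3.94% ± 0.191 (exact permutation p = 0.0133, adjusted 0.020). Scaled to the autosomal fragments of the same allele, the Cast copy of 384 X-linked genes had a median log2 ratio of NPC to ES samples of -2.51, and 357 genes were lower by more than 1. The Dom copy had a median of 0.10, with 209 genes within 0.5 of 0, 17 lower by more than 1 and 38 higher by more than 1.

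**Figure D3:**
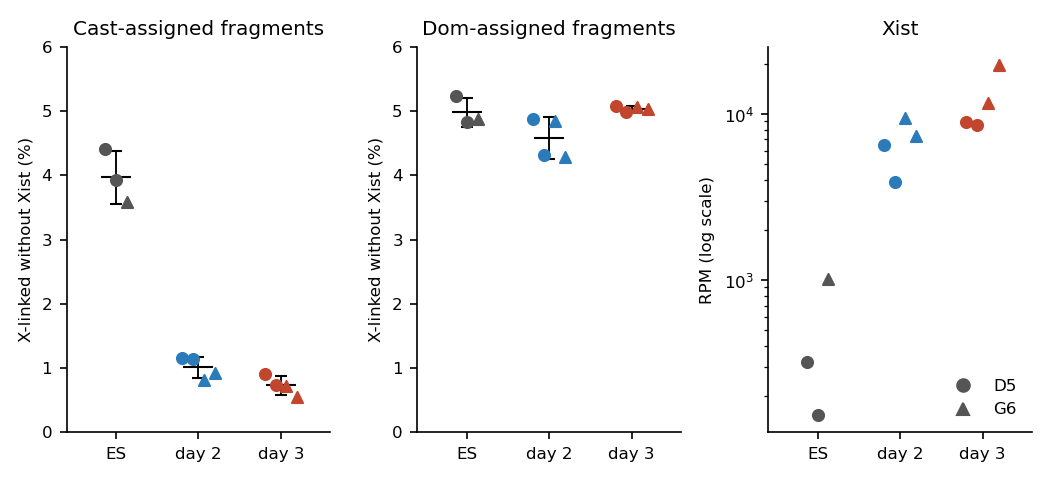
Percent of Cast-assigned (left) and Dom-assigned (middle) fragments that came from X-linked genes other than Xist, and Xist RPM on a log scale (right), by stage. Circles are D5 and triangles G6 replicates. Horizontal bars with whiskers, in the left and middle panels only, are the mean and SD. The Cast percent falls from 3.97 to 0.871 on average while the Dom percent stays between 4.29 and 5.24.

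Genes could therefore rise in total while their Cast share fell. Pim2, a survival kinase gene, stood at 13.7 and 9.69 RPM in D5 ES and 14.3 RPM in G6 ES and at 31.1 to 85.6 RPM in NPC samples (log2 change 1.96 ± 0.24), with a Cast share of 0.437 in ES, 0.273 at day 2 and 0.146 at day 3. Its Dom copy rose by 2.605 on the log2 scale and its Cast copy by 1.14. Pak3, a kinase of neuronal cells, rose by 1.38 in total and by 2.17 on the Dom copy, whereas its Cast share went from 0.351 to 0.0200 at day 3. In Klhl13, a ubiquitin ligase adaptor and the X-linked gene that fell most under the naming rule (849 to 1793 RPM in ES, 103 to 265 RPM in NPC samples, log2 change -3.31), the Dom copy fell by 2.48 and the Cast copy by 3.97, so both alleles were lower. These genes were picked for this pattern after their values were seen.

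Silencing was measured gene by gene as the Cast share, limited to genes with at least 10 allelic fragments in every replicate: 385 of the 399 genes in the authors' Cast table. At days 2 and 3 the share was lower than in ES in 384 of 385 genes (99.7%, limma with a mean-variance trend, adjusted p below 0.05), and Xist was the only gene with a higher share, which rose from 0.824 to 0.961 at day 3. Shares of the 3 ES and the 8 NPC replicates did not overlap in 371 of the 384. Per replicate, the median share over genes was 0.445 and 0.447 in D5 ES and 0.417 in G6 ES. At day 2 it was 0.128 and 0.159 in D5 and 0.106 and 0.143 in G6, and at day 3 0.0921 and 0.0727 in D5 and 0.0889 and 0.0610 in G6. The ES and NPC values were far apart (mean difference within clones -0.325, exact two-sided permutation p = 0.0133, adjusted 0.020), with autosomal medians at 0.484 to 0.493 throughout.

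**Figure D4:**
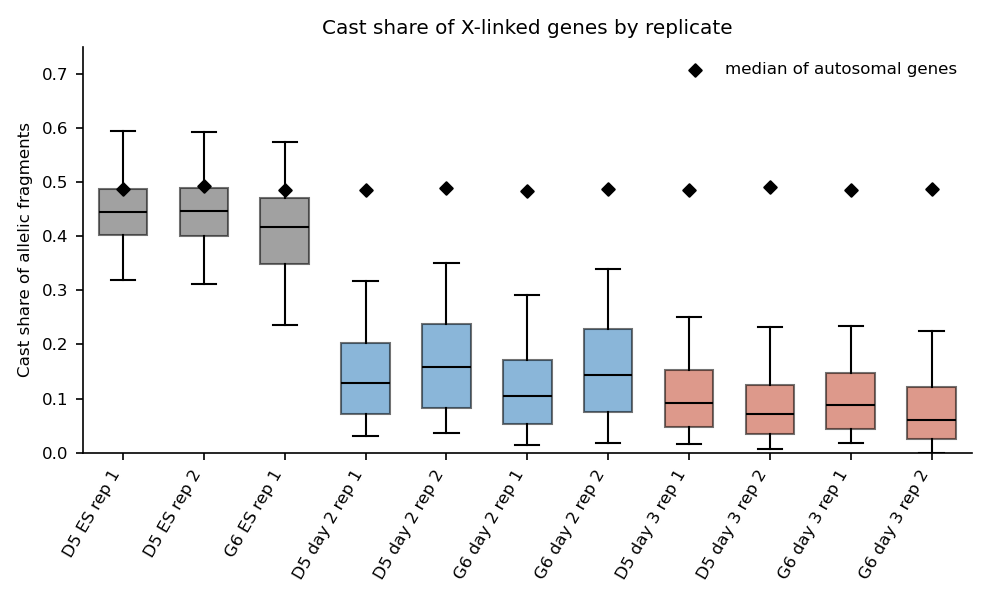
Cast share of 384 X-linked genes (Xist left out) in each replicate: the box spans the quartiles of the genes, the line the median and the whiskers the 5th and 95th percentiles; black diamonds are the medians of autosomal genes. Medians lie at 0.417 to 0.447 in ES, 0.106 to 0.159 at day 2 and 0.0610 to 0.0921 at day 3, while the diamonds stay near 0.49.

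Shares were lower at day 3 than at day 2, by an amount that depended on the libraries used. From day 2 to day 3 the median moved by -0.0554, with all 4 day 3 replicates below all 4 of day 2 (exact two-sided permutation p = 0.0556, adjusted 0.0667, the smallest p of 36 arrangements, so that this design could not reach 0.05). It moved by -0.0734 with R1 alone (exact permutation p = 0.0556) and by -0.0389 with R2 alone (exact permutation p = 0.167). By gene, 155 of 385 shares were lower at day 3 (40.3%). With R1 alone 251 were called and with R2 alone 1. The count was 46 without D5 day 2 replicate 2, 98 without D5 day 3 replicate 1, 49 without D5 day 3 replicate 2, 55 without G6 day 2 replicate 2 and 33 without G6 day 3 replicate 2. The mean share was lower at day 3 in 366 of 384 genes. Genes with a mean share under 0.1 numbered 2 in ES, 147 at day 2 and 227 at day 3, and those over 0.3 numbered 369, 28 and 9.

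Among genes with at least 50 allelic fragments in every replicate, the lowest shares at day 3 were in Hnrnph2, Fndc3c1, Gabra3, Tceal8, Elf4, Heph, Mageb16 and Zdhhc15, with means of 0.00451 to 0.0103. Gabra3, a GABA receptor subunit gene, had shares of 0.349 and 0.363 in D5 ES and 0.369 in G6 ES, 0.0257 to 0.0483 at day 2 and 0.00261 to 0.00770 at day 3. Its stages did not overlap, though the test of day 3 against day 2 did not pass (limma adjusted p = 0.0685). Hnrnph2 and Mageb16 were already low in ES, at 0.0462 to 0.0978 and 0.0724 to 0.105, and their shares fell by only 0.0566 and 0.0791. Heph, which encodes the ferroxidase hephaestin, came from 0.504 in ES to 0.00813 at day 3.

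At the other end, the highest shares at day 3 after Xist were in Atp6ap1, Slc25a5, Eif2s3x, Kdm6a, Las1l, Taf1 and Rpgr. Atp6ap1, a subunit of the vacuolar proton pump, had the highest of them, 0.657 ± 0.0135 (SD, n = 4), from 0.790 in ES. Slc25a5, an ADP/ATP carrier, had shares of 0.541 and 0.639 in D5 ES and 0.610 in G6 ES, 0.420 to 0.547 at day 2 and 0.520 to 0.576 at day 3. Its groups overlapped, and it passed the test over both days (limma adjusted p = 0.0241) but not at day 3 alone. Leaving out D5 ES replicate 2, D5 day 3 replicate 2 or G6 ES replicate 1 ended that call. Kdm6a, the H3K27 demethylase UTX, had shares of 0.429 to 0.468 in ES, 0.407 to 0.429 at day 2 and 0.363 to 0.393 at day 3 (limma adjusted p = 0.0187 over both days). It and Wdr44 did not pass at day 2 alone, and its call over both days was lost without G6 ES replicate 1. Eif2s3x, a translation initiation factor subunit, went from 0.558 in ES to 0.382 at day 3.

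Eif2s3x and Kdm6a belong to the list of genes known to escape X inactivation, and the other members measured had lower shares at day 3. Ddx3x, an RNA helicase, went from 0.475 in ES to 0.305 at day 2 and 0.226 at day 3, Kdm5c, an H3K4 demethylase, from 0.414 to 0.263 and 0.213, and the noncoding gene 5530601H04Rik from 0.487 to 0.366 and 0.271. Pbdc1 and Utp14a reached 0.170 and 0.128 at day 3. Of the 11 listed escape genes, Mid1 was not in the Cast table and Car5b had too few allelic fragments. In total counts 6 of the 11 fell and 1, Jpx, rose, where 59.3% of all X-linked genes tested fell and 3.70% rose.

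Around Xist itself shares differed from gene to gene, beside X-wide medians of 0.135 at day 2 and 0.0828 at day 3. Rlim, the ubiquitin ligase that activates Xist, had a share of 0.440 in ES, 0.0505 at day 2 and 0.0441 at day 3. Ftx, a noncoding gene next to Xist, reached 0.0856 at day 2 and 0.0748 at day 3, and both genes were below the X-wide medians at both days. Tsix, the antisense partner of Xist, fell in total from 468 to 549 RPM in ES to 124 to 265 RPM, with shares of 0.412 in ES, 0.150 at day 2 and 0.183 at day 3, above the medians. Counting was strand-specific, and Xist and Tsix overlap. Jpx, an activator of Xist, had a share of 0.541 in ES, 0.115 at day 2 and 0.166 at day 3. The day 2 and day 3 replicates of Jpx overlapped in share. Its allelic counts were low, with 8 Cast and 5 Dom fragments in D5 ES replicate 2.

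Genes differed along the chromosome. The 65 genes 80 to 100 Mb to the centromeric side of Xist had the highest median share at day 2, 0.247, and at day 3, 0.154, from 0.454 in ES. The 29 genes within 20 Mb on the telomeric side had medians of 0.0856 and 0.0499, and the 52 genes within 20 Mb on the centromeric side 0.0992 and 0.0566. The 40 genes at 40 to 60 Mb on the centromeric side, at 0.0481, were as low at day 3 as those next to Xist, so that the share did not simply grow with distance. Genes of a bin share their neighbourhood and libraries, and these medians are given with no test.

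**Figure D5:**
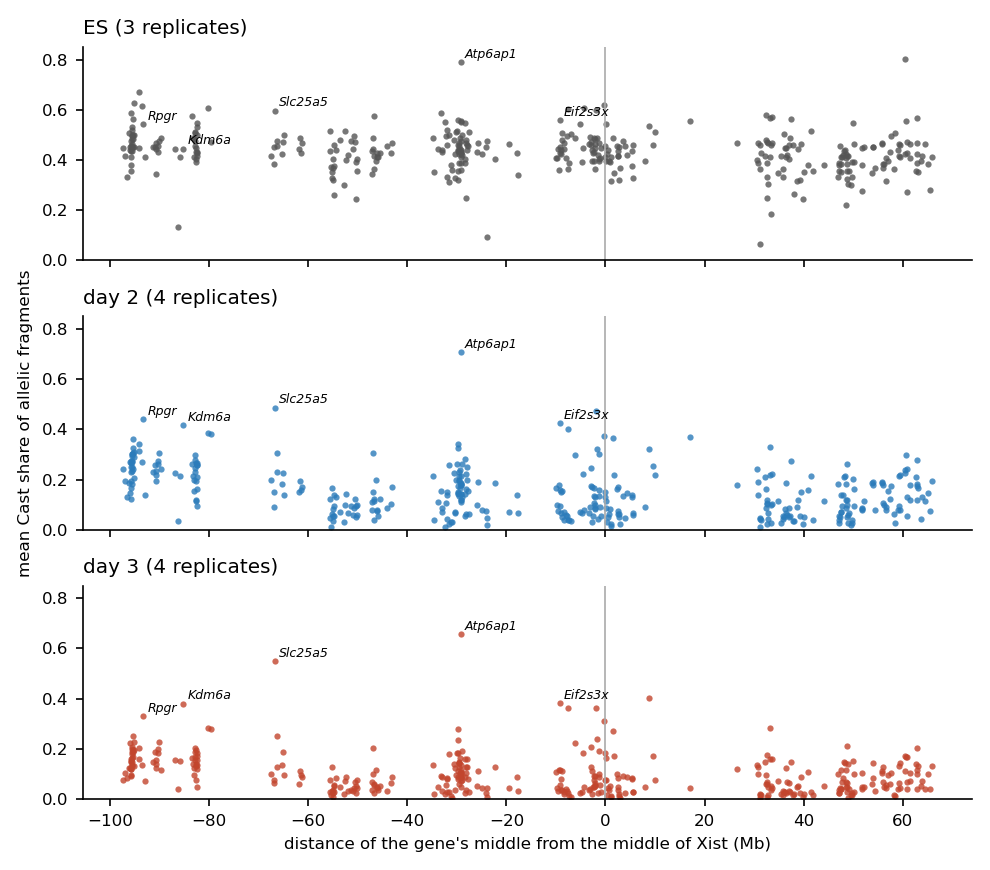
Mean Cast share of each of 384 X-linked genes against the distance of the gene from Xist in Mb (negative towards the centromere), in ES (top), at day 2 (middle) and at day 3 (bottom). Most genes lie near 0.44 in ES and below 0.2 at day 3, the group at 80 to 100 Mb on the left stays higher (median 0.154), and the labelled genes are among the highest at day 3.

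The fall in share differed between the clones in 32 of 385 genes by limma's interaction test (8.31%), 30 of them with a larger fall in D5 and 2, Pgrmc1 and Hs6st2, with a larger fall in G6. In those 30 the G6 ES replicate had a lower share than both D5 ES replicates. Their median share was 0.406 in D5 ES and 0.276 in G6 ES, and 0.0323 and 0.0269 at day 3, so the clones differed in ES and came close by day 3. The smallest adjusted p belonged to Xpnpep2, Nhs, Arhgap6, Timm17b and Bcorl1. In Nhs, shares were 0.579 and 0.565 in D5 ES and 0.378 in G6 ES, and 0.00658 to 0.0165 in all day 3 replicates. The result rests on 1 ES replicate of G6, the replicate whose Xist was the highest of the 3 ES samples. On the log2 ratio of Cast to Dom fragments, and by edgeR on the allelic counts, no gene was called for this difference, with 6 and 12 genes at an unadjusted p under 0.05. The count was 20 without D5 day 2 replicate 1, 18 without D5 day 3 replicate 1, 16 without D5 day 3 replicate 2, 19 without G6 day 2 replicate 2, 16 without G6 day 3 replicate 1 and 18 without G6 day 3 replicate 2. What part the ES level of Xist had in this difference was not tested.

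Genes for the machinery that Xist uses changed in both directions, with 5 of 21 higher, 7 lower and a median log2 change of -0.01, where 20.7% of all genes were higher and 21.7% lower. With library totals in place of TMM scaling 8 were higher and 6 lower, with a median of 0.15. Polycomb and corepressor genes were among those that fell. Suz12, a core subunit of PRC2, stood at 938 and 956 RPM in D5 ES and 791 RPM in G6 ES and at 273 to 542 RPM in NPC samples, which did not overlap (log2 change -1.32 ± 0.17, edgeR adjusted p = 0.000111). Eed, another PRC2 subunit, and Ncor1, a corepressor, fell by 1.06 and 1.07, and Jarid2, a PRC2 cofactor, by 0.81. Ring1, a PRC1 subunit, rose by 1.91 and Ciz1, which anchors Xist, by 0.99. Spen, the main silencing factor that binds Xist, had a log2 change of -0.22 and did not pass the test.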

How the data were processed

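ChrRNA-seq libraries were paired-end (81 bases) and strand-specific. The authors removed ribosomal reads with Bowtie2 2.3.2, mapped with STAR 2.4.2a to mm10 masked at strain variants, split alleles with SNPsplit and counted fragments over whole transcripts with featureCounts 1.5.2. The deposited count files held whole-number counts for 22556 genes: all fragments, and those of the Cast and of the Dom allele. The authors also deposited a table of allelic ratios as a fraction, Xi/(Xi + Xa). Its list of 399 genes was used, and shares were computed from the counts, which gave the same values. Coordinates are mm10.

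Here R1 and R2 counts were summed. Total counts were fitted by the quasi-likelihood method of edgeR 4.0.16 (stage plus clone, TMM scaling, low counts removed by filterByExpr), shares with limma 3.58.1 in R 4.3.3, and single values by exact permutation within clone. Adjusted p-values are Benjamini-Hochberg values. DESeq2 1.42.0 was an alternative. The scripts were tested on simulated data. Replicate numbers of days 2 and 3 were read as pairs only in the alternative fit with the replicate number as a block. The main fits and the permutations did not use them. Deviations of same-numbered replicates from their group means correlated at 0.191 to 0.712 between these groups, and the study describes repeated time courses. Between the clones the correlation was 0.712 at day 2 and 0.610 at day 3. Same-numbered replicates of the clones may therefore not be independent, whereas the main p-values treat them so. Members and gene lists were chosen with earlier results of these data known. Named genes were list members and, by rule, the 12 with the largest change each way (at least 20 RPM, called, no overlap, no predicted or small RNA), 5 each way for day 3 against day 2, the 8 lowest and 8 highest shares at day 3 (at least 50 allelic fragments), and the 5 smallest adjusted p of each clone difference. Depth was 13211298 to 29419489 fragments per library. Some genes that the rule or the lists select are not reported here.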

Additional observations from a re-analysis of the deposited data

Results flagged for a closer look

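In 423 groups of 4 or 8 replicates, 17 had a sample far from the others by Dixon's criterion, and chance alone gives about 1 in 20. At day 3, Tbx3 stood at 8.33 RPM in G6 replicate 2, Pcdh11x at 41.8 RPM in G6 replicate 1, Thbs1 at 21.2 RPM in D5 replicate 1, Pou5f1 at 95.01 RPM in D5 replicate 2 and Ciz1 at 12.98 RPM in D5 replicate 2 (others 11.7 to 11.8 RPM). At day 2, Ncor1 stood at 573 RPM in G6 replicate 2. Over both days, G6 day 2 replicate 2 was apart in Hes6 (13.7 RPM, others 2.69 to 7.46 RPM) and in Stmn2 (61.3 RPM), and D5 day 3 replicate 2 in Ddx3x (919 RPM, others 602 to 729 RPM). In Cast share, D5 day 2 replicate 1 was high for Elf4 (0.0909), and D5 day 2 replicate 2 was high for Gabra3 (0.0483), Heph (0.0926), Hnrnph2 (0.0255) and Xpnpep2 (0.0476). G6 day 2 replicate 2 was high for Jpx (0.191) and Rlim (0.0721), and D5 day 3 replicate 1 was high for Xpnpep2 (0.0588). For Xpnpep2 the other replicates of the same day were at 0 on both days, so its flagged shares may rest on few Cast fragments.

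The fall in share differed between the clones, by the interaction term in limma, in 32 genes. The fall was larger in D5 than in G6 by 0.424 in Timm17b, 0.341 in Xpnpep2, 0.191 in Nhs, 0.166 in Arhgap6 and 0.123 in Bcorl1. Each of these rests on the 1 ES replicate of G6.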

How the results depend on the processing

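Genes changed against ES numbered 3124 with D5 alone and 1692 with G6 alone over both days, 1798 and 1015 at day 2, and 2281 and 1453 at day 3. Leaving out 1 replicate gave 4306 to 6755 over both days, 4001 to 6177 at day 2 and 3687 to 5840 at day 3. Day 3 against day 2 gave 1073 genes by DESeq2, 3 with D5 alone, 2 with G6 alone, 790 with R1 alone, 60 with R2 alone, and 86 to 616 without 1 replicate. The clone difference gave 20 genes by DESeq2 and 0 by edgeR without any 1 replicate, and could not be fitted without G6 ES replicate 1. The replicate number as a block gave 7451 genes over both days and 1216 for day 3 against day 2. D5 ES replicates did not pair with the other groups by number (correlations of -0.0409 to 0.126), and the block changed the count of no other comparison by over 1.5 times.

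Shares called as changed against ES numbered 384 to 390 without 1 replicate. Shares called as changed between day 2 and day 3 numbered 260 on the log2 ratio, 242 by edgeR on allelic counts, 45 with R1 and R2 as separate replicates, 251 with R1 and 1 with R2 alone, 138 with the replicate block, 33 to 185 without 1 replicate and, by limma, 0 with D5 or G6 alone (149 and 50 genes at an unadjusted p under 0.05). The clone difference in share gave 0 on the log2 ratio and on allelic counts, 20 with R2 alone, 27 with the block and 16 to 41 without 1 replicate. Kdm6a lost its call over both days with either clone alone, with R1 and R2 separate or R2 alone, and on allelic counts, and Slc25a5 with D5 alone or R2 alone. The share of Timm17b turned to 0.0189 higher with G6 alone.

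The median share moved from day 2 to day 3 by -0.0524 with R1 and R2 as separate replicates (exact permutation p = 0.04). The share of summed fragments, which by construction counts the abundant Cast-derived Xist, rose by 0.0320, and without Xist it fell by 0.0571. Without 1 replicate the median share moved by -0.333 to -0.318 against ES and by -0.0646 to -0.0461 between the days, Xist by 3.92 to 4.90, and the X-linked percent by -2.28 to -1.97 of all, -3.18 to -2.89 of Cast and -0.246 to -0.0417 of Dom fragments. Without G6 ES replicate 1 the smallest p that the exact permutation allowed was 0.0667. The other settings kept the direction of these results and the side of the threshold. Of 5738 values of named genes in total counts 5288 kept both, 336 no longer passed, 114 newly passed and none turned, and of 720 values in share 698 kept both. Genes under about 10 allelic fragments per replicate were out of reach at this depth.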
